A study of Mus musculus with 8 samples.

Results

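Nonproductive rearrangements of the T cell receptor β chain gene were compared with productive ones in immature mouse thymocytes that lack CD4 and CD8, called double-negative (DN) cells. A contig is the receptor transcript assembled for 1 chain in 1 cell, and a nonproductive contig is a full-length TRB contig that the deposited tables do not call productive. By this rule 905 contigs were nonproductive and 4168 were productive, of 12627 contigs of all chains. They came from 4 receptor libraries: DN3 cells (CD44-, CD25+) and DN4 cells (CD44-, CD25-) of wild-type (WT) C57BL/6J mice and of knock-in (KI) mice whose GSK3B kinase carries the Ser389Ala change, alanine in place of a serine, on a strain background that the labels do not give. DN cells were enriched with magnetic depletion of cells that bound antibodies to the kappa chain, CD8, CD4, CD11b or MHC class II, and were then sorted by flow cytometry. Each group had 1 receptor library and 1 matching 5′ gene expression library, so genotypes and stages are set side by side without a test. The labels do not give the number of mice, and whether cells of several animals were pooled is not stated in the sources used here. All intervals are 95% exact (Clopper-Pearson) binomial intervals and cover counting error only, and the limit beside a count of 0 is 3 counts of the total.

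The β chain gene is built in DN thymocytes by joining a D to a J segment and then a V segment to that DJ unit. A join in the wrong reading frame, or through a V segment that carries a stop codon, cannot encode the chain, and the cell can then try the other allele. Joining deletes the DNA between the joined segments, except for Trbv31, which lies beyond the constant genes in the opposite orientation and joins by inversion. Cells with a working β chain pass β-selection and divide, and transcripts with early stop codons are known targets of nonsense-mediated decay.

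The locus lies on chromosome 6. In GENCODE vM21 on the mouse build GRCm38 it runs from Trbv1 (40891229 to 40891885) to Trbv31 (41557691 to 41558452, minus strand). The first D-J-C unit holds Trbd1 (41533201 to 41533212), the Trbj1 segments and Trbc1 (41538218 to 41539881). The second holds Trbd2 (41542163 to 41542176), the Trbj2 segments and Trbc2 (41546730 to 41548352).

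What a nonproductive join looks like is shown by the junctions, which the deposited tables list from the cysteine codon near the end of V to the phenylalanine codon of J. The most common listed kind began out of the reading frame of V. The example with the most UMIs (unique molecular identifiers, a count of captured transcripts) in a cell with exactly 1 productive contig is given for each library, followed by the productive junction of the same cell. Capitals mark the run, counted from the first base, that matches the germline V segment.
WT DN3, nonproductive TRBV12-1 with TRBJ2-1: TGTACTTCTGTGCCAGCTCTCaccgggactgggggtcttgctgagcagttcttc
WT DN3, productive TRBV16 with TRBJ2-3: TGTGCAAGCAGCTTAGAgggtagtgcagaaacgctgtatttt
KI DN3, nonproductive TRBV31 with TRBJ2-1: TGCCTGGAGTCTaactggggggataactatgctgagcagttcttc
KI DN3, productive TRBV5 with TRBJ2-4: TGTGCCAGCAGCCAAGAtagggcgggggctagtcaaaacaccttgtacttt
WT DN4, nonproductive TRBV31 with TRBJ1-3: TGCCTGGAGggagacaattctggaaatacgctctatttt
WT DN4, productive TRBV30 with TRBJ2-7: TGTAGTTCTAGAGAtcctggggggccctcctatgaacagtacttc
KI DN4, nonproductive TRBV12-1 with TRBJ2-3: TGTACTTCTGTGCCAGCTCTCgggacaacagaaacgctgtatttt
KI DN4, productive TRBV1 with TRBJ2-5: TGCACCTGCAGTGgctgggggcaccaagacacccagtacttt

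The TRBV12-1 examples begin 8 bases before the conserved cysteine codon, and the TRBV31 examples begin 2 bases inside it. Among the 277 junctions that began out of frame, 224 began 2 bases inside the cysteine codon, 31 began 8 bases before it and 22 began 2 bases before it. The contigs of the 4 pairs shown had 14, 35, 21 and 24 UMIs when nonproductive, against 41, 139, 59 and 74 UMIs for the productive contig of the same cell.

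A second, rarer kind runs from the V cysteine to the J phenylalanine in 1 frame and is still called nonproductive. The examples below were picked in the same way and include a V name, TRBV23, that made up most of this kind. The KI DN4 example carries the same junction as the productive contig of its cell. It was 394 bases long with 14 UMIs, against 513 bases and 59 UMIs for that productive contig. Such shared junctions are treated with TRBV31 below.
WT DN3, TRBV23 with TRBJ1-3: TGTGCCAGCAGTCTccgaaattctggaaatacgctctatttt
KI DN3, TRBV2 with TRBJ2-2: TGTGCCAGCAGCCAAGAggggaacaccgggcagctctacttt
WT DN4, TRBV23 with TRBJ2-1: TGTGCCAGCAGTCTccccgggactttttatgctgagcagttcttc
KI DN4, TRBV31 with TRBJ2-3: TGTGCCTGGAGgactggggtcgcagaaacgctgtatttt

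In the third kind the junction starts in the V frame but does not end at the phenylalanine of the named J segment, and examples from 3 libraries are given.
WT DN3, TRBV31 with TRBJ1-4: TGTGCCTGGAccccg
KI DN3, TRBV12-1 with TRBJ2-1: TGTGCCAGCTCTCTCccctgg
WT DN4, TRBV5 with TRBJ2-3: TGTGCCAGCAGCCcgccg

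Of the 905 nonproductive contigs, 483 (53.4%, 50.1 to 56.7%) had no junction listed. Another 271 (29.9%, 27 to 33%) began out of the V frame and ended at the J phenylalanine. The V frame was kept without reaching that phenylalanine in 90 (9.94%), and 4 of these held a stop codon in the junction. Only 43 (4.75%) ran from cysteine to phenylalanine in 1 frame, and the other 18 began at no matched base or ended elsewhere out of frame. Productive contigs ran in 1 frame in 4123 of 4168 (98.9%). Reading frame is part of the productive call, so these shares describe the members and test nothing.

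Counted from the V cysteine, the 271 out-of-frame junctions had a median of 41 bases (quartiles 40 and 44), and none was a multiple of 3. Productive junctions had a median of 42 bases (quartiles 39 and 45), and all were multiples of 3. The share of the out-of-frame kind was alike across libraries. It made up 28.8% and 30.8% in the WT and KI DN3 libraries and 28.6% and 30.6% in the WT and KI DN4 libraries. Each of these shares lies inside the counting interval of the other 3. Contigs with no junction listed made up 59.3% and 54.1% in WT and KI DN3, and 51.2% and 52.5% in WT and KI DN4. The WT DN3 value lies above the intervals of WT DN4 (44.3 to 58.1%) and KI DN4 (47.5 to 57.5%).

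Nonproductive contigs made up 118 of 762 full-length TRB contigs in WT DN3, or 15.5% (13 to 18.3%). They made up 172 of 969 in KI DN3, or 17.8% (15.4 to 20.3%), 213 of 1179 for WT DN4, or 18.1% (15.9 to 20.4%), and 402 of 2163 for KI DN4, or 18.6% (17 to 20.3%). WT DN3 was the lowest, and all 4 intervals overlap. By cell, 113 of 608, 168 of 751, 202 of 921 and 379 of 1652 cells with full-length TRB held a nonproductive contig in the same order, which is 18.6%, 22.4%, 21.9% and 22.9%.

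Nearly every cell with a nonproductive contig also held a productive one: 113 of 113, 168 of 168, 198 of 202 and 374 of 379 cells in the same order. This follows from which cells the tables hold. All 3947 barcodes carried at least 1 productive chain, so a cell with no productive chain is not in these tables, and they do not show how often rearrangement fails. Only 9 cells, all DN4, held a nonproductive and no productive TRB. The 8 of them in the deposited table of cells held a productive TRA, and they were too few for an expression profile.

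Transcripts of the nonproductive allele were scarcer than those of the productive allele in all 4 libraries. The median nonproductive contig had 4 UMIs in WT DN3, KI DN3 and WT DN4 and 5 UMIs in KI DN4. The median productive contig had 32, 34, 32 and 38 UMIs in the same order. The mean log2 UMIs per contig differed by -2.74, -2.62, -2.84 and -2.62, nonproductive minus productive, with a mean of -2.70 ± 0.10 (SD, n = 4 libraries). The classes overlapped, since single contigs reached 112 UMIs when nonproductive and fell to 1 UMI when productive.

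The comparison within single cells, which share capture and depth, gave the same size of difference. Exactly 1 productive and 1 nonproductive contig were found in 97, 153, 181 and 326 cells. The nonproductive contig had on average (geometric mean) 6.65-fold and 7.18-fold fewer UMIs in WT and KI DN3, and 6.84-fold and 6.33-fold fewer in WT and KI DN4. On the log2 scale the mean over libraries was -2.75 ± 0.08 (SD, n = 4). Of the 757 cells, the nonproductive contig was lower in 719, equal in 7 and higher in 31. The exact two-sided sign-flip permutation test over the 4 libraries gave p = 0.125 for both UMI comparisons, the smallest value 4 libraries allow, and 0.208 after Benjamini-Hochberg adjustment over 5 comparisons of contig properties.

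**Figure D1:**
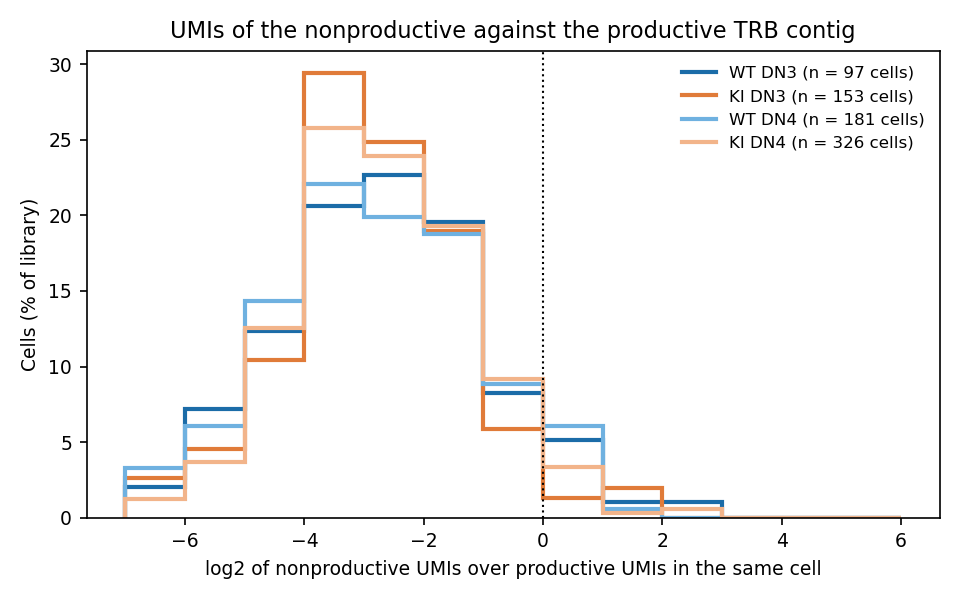
Log2 of the UMIs of the nonproductive contig over those of the productive contig in the same cell (x axis, 1-unit bins) against the percentage of each library's cells (y axis), for cells with 1 contig of each class. The distributions of the 4 libraries overlap, with 719 of 757 cells left of the dotted line at 0, where both contigs have equal UMIs.

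Every barcode in the tables holds a productive contig, and the part of this in the gap was not tested. As a reference, cells with 2 productive contigs (25, 35, 40 and 85 cells) had mean log2 ratios of the weaker over the stronger contig of -1.54, -2.51, -1.81 and -1.83. The weaker over the stronger contig of cells with 1 of each class gave -2.86, -2.90, -2.82 and -2.72. The difference between these groups of cells was not tested.

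The gap varied with the cell cluster, compared here over the deposited clusters 0 to 6. In clusters 3 and 4, where the cycling markers Mki67 (68.2 and 286 CPM, its UMIs scaled to a common total) and Top2a (144 and 618 CPM) and the coreceptor gene Cd8b1 (174 and 101 CPM) were high, nonproductive contigs had 8.74-fold and 8.35-fold fewer UMIs than the productive contig of the same cell (240 and 217 cells). In cluster 6, with an intermediate level of the DN3 marker Il2ra (369 CPM), the gap was 6.56-fold (84 cells). In clusters 0 and 1, pooled, where Il2ra (650 CPM) and the pre-T cell receptor gene Ptcra (624 CPM) were high, it was 3.68-fold (39 cells).

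It was 4.35-fold in cluster 2 (54 cells), where the γδ T cell genes Trdc and Sox13 were at 526 and 134 CPM, and 3.76-fold in cluster 5 (110 cells), where Il2rb and the α chain constant gene Trac were at 555 and 294 CPM. Median productive UMIs moved with it, from 16 in clusters 0 and 1 and 15 in cluster 5 to 45 and 53 in clusters 3 and 4, while median nonproductive UMIs stayed between 3 and 6. Within WT DN4 the gap was 12.4-fold in cluster 3 and 4.08-fold in cluster 5, and within KI DN4 8.10-fold and 3.46-fold. The part of the small nonproductive counts in these ratios was not tested.

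The share of TRB cells with a nonproductive contig was lowest in clusters 0 and 1 among these 7 clusters. It was 20 of 155 cells (12.9%) in WT DN3 and 19 of 118 (16.1%) in KI DN3, or 14.5% (10.6 to 19.3%) over all libraries. In cluster 6 it was 23.7% in WT DN3 and 25.3% in KI DN3, and in cluster 4 it lay between 21.9% in WT DN3 and 24.6% in WT DN4. Cluster 3 ranged from 14.1% in WT DN3 to 24.9% in KI DN4, and clusters 2 and 5 from 19.6% to 21.4%. Among cells whose productive contig had 10 to 29 UMIs, clusters 0 and 1 gave 17.5% (24 of 137), cluster 5 gave 18.3%, and the other 4 groups gave 23.1 to 26.6%, with overlapping intervals. Within libraries the share showed no steady rise with productive UMIs. Over 4 groups of cells cut at the quartiles of productive UMIs, from low to high, it was 17.3%, 20.7%, 18.7% and 17.7% in WT DN3 and 25.4%, 18.2%, 22.4% and 20.3% in WT DN4. KI DN3 gave 20.6%, 22.2%, 24.7% and 22% and KI DN4 gave 21.8%, 23.8%, 24.8% and 20.5%.

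**Figure D2:**
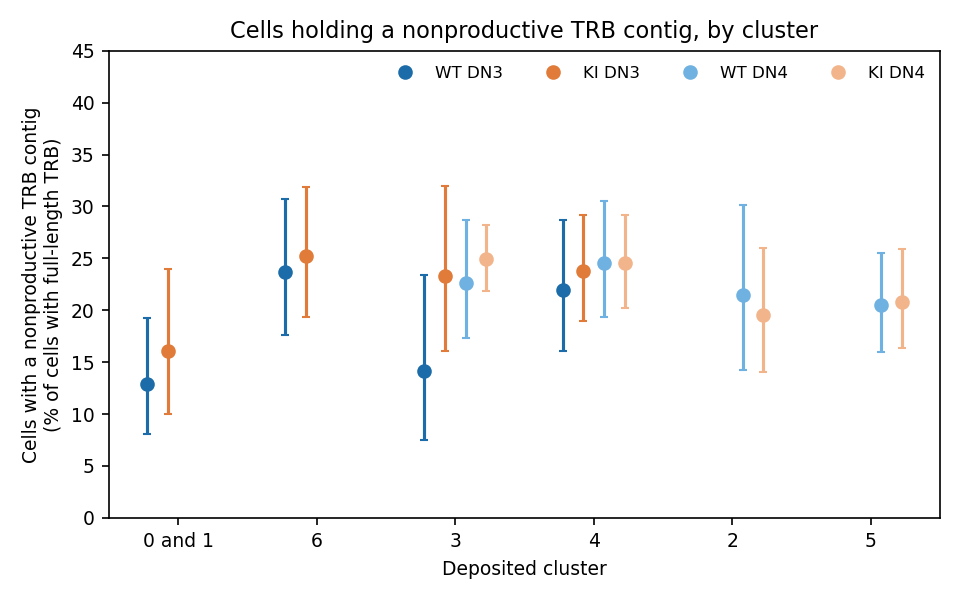
Percentage of cells with full-length TRB that hold a nonproductive TRB contig (y axis) by deposited cluster (x axis) and library, with 95% exact binomial intervals; library and cluster pairs with under 20 cells are left out. Clusters 0 and 1 are lowest, at 12.9% in WT DN3 and 16.1% in KI DN3.

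The split between the Trbj1 and Trbj2 clusters showed no difference beyond the spread between libraries. Trbj2 segments made up 59.3% of nonproductive and 56.8% of productive contigs in WT DN3, and 58.7% and 55.3% in KI DN3. In WT DN4 they made up 54.0% and 58.8%, and in KI DN4 58.5% and 58.7%. The difference had a mean of 0.20 ± 3.68 percentage points (SD, n = 4 libraries) and an exact two-sided sign-flip permutation p of 1. Across the 12 J names the mean nonproductive share ran from 14.5% ± 2.10 for TRBJ1-4 to 22.6% ± 4.21 for TRBJ1-6 (SD, n = 4 libraries). TRBJ1-6 was between 18.2% and 26.8% and TRBJ1-4 between 11.5% and 16.5% in single libraries, ranges that do not overlap. TRBJ1-6 and TRBJ2-1 were above the library average in all 4 libraries and TRBJ1-4, TRBJ1-1 and TRBJ2-5 below it in all 4, which was not tested for single J names. The other 10 had means between 14.8% and 20.6%, and neighbours in this order overlapped in their library ranges.

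Constant gene names added little, because the tables name TRBC1 or none. TRBC2 was named for none of the 905 nonproductive and none of the 4168 productive contigs, and no contig with a Trbj2 segment was named TRBC1. The share with no constant gene was 5.57 and 5.09 percentage points higher among nonproductive contigs in WT DN3 and KI DN3, 2.93 points lower in WT DN4 (a difference of -2.93) and 1.31 points higher in KI DN4 (exact two-sided sign-flip permutation p = 0.375). Among Trbj1 contigs alone, 19 of 384 nonproductive contigs (4.95%, 3.0 to 7.62%) and 10 of 1759 productive contigs (0.569%, 0.273 to 1.04%) lacked a constant gene name.

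The nonproductive share varied more over V names than over J names. It ran from 62.2% ± 5.85 for TRBV13-2 and 60.6% ± 5.37 for TRBV23 to 4.85% ± 3.78 for TRBV3 (SD over 3, 4 and 4 libraries). Of the 21 V names with at least 20 contigs, 5 were used more by nonproductive than by productive contigs in all 4 libraries and 4 were used less. The exact sign-flip permutation test over 4 libraries gave an adjusted p of 0.292 for each of these 9 names, the smallest over the 21.

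TRBV23 was nonproductive in 54.5% and 63.2% of contigs in WT and KI DN3, and in 58.1% and 66.7% in WT and KI DN4 (126 contigs in all). TRBV10 was nonproductive in 33.3%, 22.8%, 28.6% and 40.7% in the same order (339 contigs). Both were above the library average in every library, and both names are treated further below. TRBV31 followed with 16.2%, 26.1%, 33.3% and 25.2% (249 contigs), then TRBV1 with 29.4%, 18.2%, 23.5% and 20.7% (221 contigs) and TRBV5 with a mean of 20.2% ± 3.12.

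At the other end, TRBV3 was nonproductive in 0 of 44 contigs in WT DN3 and in 4.0%, 8.75% and 6.67% of contigs in KI DN3, WT DN4 and KI DN4 (294 contigs in all). The count of 0 allows a share of up to 6.82% (3 counts of 44). TRBV20 had a mean of 7.45% ± 3.21, TRBV26 of 9.88% ± 4.07, TRBV12-2 of 11.9% ± 5.68 and TRBV12-1 of 13.5% ± 4.25 (SD, n = 4 libraries). TRBV3, TRBV20 and TRBV26 stayed below the library average in all 4 libraries, whereas TRBV12-2 was above it in WT DN3, at 19.4%.

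The high value of TRBV13-2 belongs to a rarely used name. The tables use a joint name, TRBV12-2+TRBV13-2, for 391 contigs, of which 6.22% ± 2.73 were nonproductive, and TRBV13-2 alone for only 34, whose nonproductive contigs were short (a median of 471 bases against 543 for productive ones). The names combined gave 10.6% ± 3.77 (47 of 425 contigs), below the average of all V names.

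**Figure D3:**
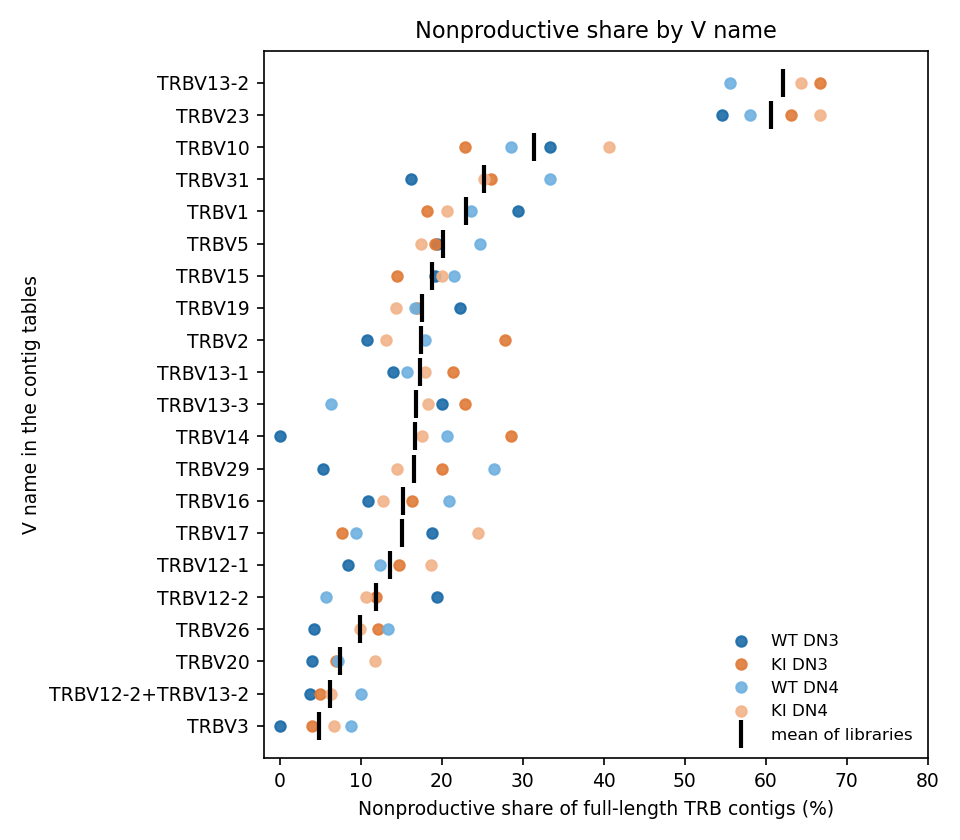
Nonproductive share of full-length TRB contigs in percent (x axis) for each V name with at least 20 contigs (y axis). Points are libraries with at least 5 contigs of that name and the black bar is their mean; TRBV13-2, TRBV23 and TRBV10 stand to the right of the rest, at means of 62.2%, 60.6% and 31.3%.

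Both TRBV10 and TRBV23 pointed to other germline genes. GENCODE marks Trbv10 (41091940 to 41092228) as a pseudogene, Trbv24 (41218091 to 41218557) as a pseudogene, and Trbv4 (41059394 to 41059886) and Trbv23 (41216073 to 41216526) as V genes. The tables never use the names TRBV4, TRBV21 and TRBV24. The germline ends of these 4 V segments, from 15 bases before the codon at the cysteine position to the end of the segment, show what can tell them apart. Capitals mark the codon at the cysteine position and, in Trbv24, also an in-frame stop codon 3 bases before it. Stop codons were searched for only before that position. The Trbv4 end also reads taa in the same frame after it, left in small letters. How often joins keep these last bases of Trbv4 was not tested.
Trbv4: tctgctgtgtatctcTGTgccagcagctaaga
Trbv10: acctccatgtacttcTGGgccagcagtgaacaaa
Trbv23: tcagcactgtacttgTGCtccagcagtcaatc
Trbv24: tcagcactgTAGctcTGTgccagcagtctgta

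Trbv10 has tryptophan in place of the cysteine. Of contigs named TRBV10, all 50 nonproductive and all 225 productive ones with a listed junction matched Trbv4 over a longer run than Trbv10. In the expression libraries, Trbv4 UMIs were found in 148 of 158 cells with a productive TRBV10 contig (93.7%) and in 33 of 114 with a nonproductive one (28.9%), against 0.370% of cells without that name. Trbv10 UMIs were found in none of these 158 and 114 cells, which allows up to 1.90% and 2.63% (3 counts). The nonproductive contigs were longer than the productive ones, with medians of 617.5 and 544 bases.

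TRBV23 held a pair of genes split by class. Junctions matched Trbv23 in 48 of 48 productive contigs and Trbv24 in 33 of 36 nonproductive contigs with a listed junction. In the expression libraries, Trbv23 UMIs were present in 36 of 36 cells with a productive TRBV23 contig and in 10 of 76 with a nonproductive one (13.2%). Trbv24 UMIs were present in 63 of those 76 cells (82.9%, 72.5 to 90.6%) and in 1 of the 36 (2.78%), against 2.21% of other cells. By library the 63 cells were 7 of 11, 11 of 11, 15 of 18 and 30 of 36. The TRBV23 junctions of the in-frame kind shown above start with the bases of Trbv24, and TRBV23 gave 22 of the 43 contigs of that kind.

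Without TRBV23 the nonproductive share was 16.4% ± 1.39, and without TRBV10, TRBV13-2 and TRBV23 it was 15.0% ± 1.40 (SD, n = 4 libraries). WT DN3 was lowest in the last case too, at 12.9%, with KI DN3, WT DN4 and KI DN4 at 16.0%, 15.7% and 15.2%.

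TRBV31 stood apart by its UMIs. Its nonproductive contigs had a median of 13 UMIs against 40 for its productive contigs, whereas the other V names with at least 20 contigs had nonproductive medians between 3 and 6. All 5 nonproductive contigs that carried the junction of their own cell's productive contig were TRBV31, and 4 of them were shorter than that contig by 119, 119, 119 and 123 bases while the fifth was 80 bases longer. Leaving out these 5 contigs changed no direction in the comparisons of UMIs and segments. Of the 43 in-frame nonproductive contigs 11 were under 400 bases long, while no productive contig was.

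The expression libraries, a second readout of the same cells, also held transcripts of the nonproductive V segments. The cell held a UMI of the V gene named by the nonproductive contig for 80 of 114 contigs of WT DN3 (70.2%) and 119 of 165 of KI DN3 (72.1%). It did so for 138 of 200 contigs of WT DN4 (69.0%) and 246 of 382 of KI DN4 (64.4%). For productive contigs the shares were 93.5%, 92.7%, 91.8% and 92.8%. Other TRB cells without that V name gave 2.23%, 3.45%, 2.12% and 2.14% as an average over the names, below both classes. Contigs with the joint name TRBV12-2+TRBV13-2 were not read, since no gene carries that name. The shares by name were taken with Trbv4 read for TRBV10 and Trbv23 or Trbv24 for TRBV23. By name, TRBV5 (16.7% of 78 nonproductive and 82.5% of 315 productive contigs) and TRBV10 (28.9% of 114 nonproductive contigs) were lowest. The other names reached 76.2% (TRBV13-2, 21 contigs) to 100% when nonproductive and 100% when productive. For TRBV13-2 the background was high, as 48.7% of other TRB cells over all libraries had a Trbv13-2 UMI. When Trbv4 was read for TRBV10, and Trbv23 or Trbv24 for TRBV23, the nonproductive shares were 83.3%, 80%, 80.5% and 76.2%.

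The level was lower as well. Over V names present in both classes (14 to 16 per library), with productive means weighted to the nonproductive mix, the mean number of V UMIs was 4.70 for nonproductive contigs against 30.9 for productive ones in WT DN3 and 4.63 against 26.1 for KI DN3. It was 5.46 against 31.8 for WT DN4 and 4.19 against 30.6 for KI DN4. These are 6.58-fold, 5.64-fold, 5.82-fold and 7.30-fold lower levels, beside 6.33-fold to 7.18-fold for all V names in the receptor libraries. Cells with a nonproductive contig were not shallower in the expression libraries, with medians of 15129.5, 16344, 16128 and 17266 UMIs for cells with a nonproductive contig and 12761, 15400.5, 13691 and 16884 for those with a productive one.

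**Figure D4:**
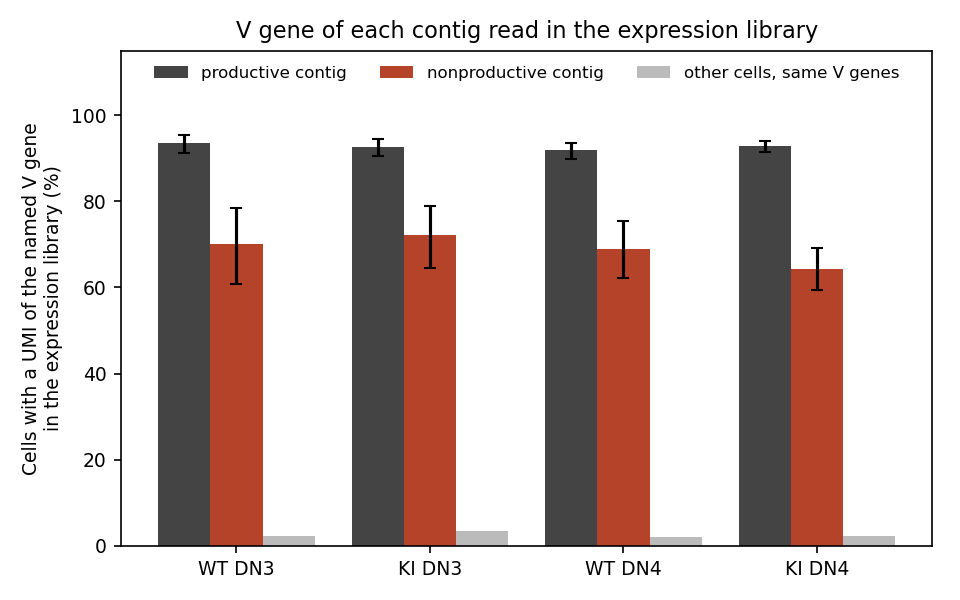
Percentage of productive and of nonproductive contigs whose cell has at least 1 UMI of the named V gene in the expression library (y axis) for each library (x axis). The background is the percentage of other TRB cells without that V name, as an average over the names. Error bars are 95% exact binomial intervals; nonproductive contigs reach 64.4 to 72.1% and the background 2.12 to 3.45%.

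Trbc1 and Trbc2, which encode the constant part of the chain, were lower in cells that held a nonproductive contig. Cells with 1 productive and 1 nonproductive contig were set against cells with 1 productive contig only, by summing UMIs per library over 750 and 2803 cells, with the library as a block. Trbc1 was at 76.3 against 402 CPM in WT DN3 and 120 against 497 CPM in KI DN3. The DN4 libraries gave 114 against 497 CPM for WT and 99.5 against 352 CPM for KI. The log2 change was -2.03 (SE 0.05), lower in 4 of 4 libraries, with an adjusted p of 2.1e-27 by edgeR's quasi-likelihood test. Trbc2 was at 234 against 516, 336 against 740, 343 against 703 and 227 against 422 CPM, a log2 change of -1.03 (SE 0.04) with an adjusted p of 1.9e-22. The test called 27 of 9985 genes, or 0.27%. DESeq2 called 5 genes, while it gave no adjusted p for most of the 27. A fit without the library block called 1, Trbc1. The test compares pairs of sums within 4 libraries, so its small p-values measure the spread between those pairs and not between mice, and it was added after seeing the data.

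The J segment genes Trbj1-2, Trbj1-3 and Trbj2-3 fell with them, with log2 changes of -2.72, -2.01 and -0.62 (edgeR adjusted p = 2.8e-07, 2.9e-07 and 0.046). Trbj2-3 lost its call whichever library was left out (edgeR adjusted p = 0.075 to 0.42). Contigs with a J but no V segment, a form that the receptor tables list as not full length, moved the same way. Such a J-only contig was found in 65 of 97 cells with a nonproductive contig against 385 of 470 without one in WT DN3 (67.0% and 81.9%). It was found in 75.8% and 85.9% of KI DN3 cells, 67.4% and 75.8% of WT DN4 cells, and 69.9% and 79.5% of KI DN4 cells. The mean difference was -10.8 ± 2.86 percentage points (SD, n = 4 libraries; exact two-sided sign-flip permutation p = 0.125). Productive UMIs differed little between these cells, with medians of 31, 38, 31 and 37 with a nonproductive contig and 33, 35, 32 and 39 without.

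Trbc1 depended on the J cluster of both contigs. In cells whose contigs both used Trbj2, a Trbc1 UMI was found in 4 of 39 cells of WT DN3 (10.3%), 12 of 65 of KI DN3 (18.5%), 4 of 71 of WT DN4 (5.63%) and 10 of 129 of KI DN4 (7.75%). With a productive Trbj2 and a nonproductive Trbj1 contig the shares were 52%, 65.1%, 59.3% and 62.0%. With a productive Trbj2 contig and no nonproductive contig they were 59.1%, 62.5%, 49.9% and 52.9%. Cells with Trbj2 in both contigs were lowest in every library, by 49.1 ± 5.96 percentage points against those with a nonproductive Trbj1 (SD, n = 4 libraries; exact two-sided sign-flip permutation p = 0.125). With each cell thinned to 3000 expression UMIs the difference was 18.4 ± 3.88 points, and in clusters 3 and 4 alone 59.2 ± 12.8. The level also set apart the cells with no nonproductive contig from those with a nonproductive Trbj1, at a mean of 4.70 against 1.60 Trbc1 UMIs per cell over all libraries (327 against 106 CPM). After thinning, the shares were 39.5%, 47.9%, 40.5% and 35.1% without a nonproductive contig and 29.2%, 27.9%, 24% and 16.1% with a nonproductive Trbj1. That difference of 16.5 ± 4.36 points was positive in 4 of 4 libraries (SD, n = 4 libraries; exact two-sided sign-flip permutation p = 0.125), against -3.49 ± 7.73 points before thinning.

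Where the productive contig used Trbj1, a Trbc1 UMI was found over all libraries in 88.2% of cells without a nonproductive contig, 92.5% with a nonproductive Trbj1 and 79.4% with a nonproductive Trbj2. The mean number of Trbc1 UMIs per cell was 7.47, 3.81 and 2.60 in the same order, and the shares after thinning were 63.6%, 55.9% and 37.1%. Trbc2 UMIs were found in 88.1 to 91.5% of cells in all 6 combinations of J clusters over all libraries, but their level was lower with a nonproductive contig. With a productive Trbj1 contig the mean was 8.67 Trbc2 UMIs without a nonproductive contig, 5.40 with a nonproductive Trbj1 and 4.02 with a nonproductive Trbj2. With a productive Trbj2 contig the means were 7.41, 4.71 and 3.60, and the thinned shares over the 6 combinations ran from 68.8% to 47.8%. The pattern by J cluster was chosen after seeing the data.

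In the V region, Trbv13-2 (41121396 to 41121832) had UMIs in 5188 of the 10237 cells of the expression libraries. Cells were grouped by whether the V segments of their contigs lay 5′ of Trbv13-2 (8 names) or 3′ of it and before the D segments (11 names). With both V segments 5′, Trbv13-2 UMIs were found in 3 of 23 cells in each DN3 library, 0 of 42 in WT DN4 (which allows up to 7.14%, 3 counts) and 5 of 80 in KI DN4. With the productive V 5′ and the nonproductive V 3′, they were found in 17 of 26 (65.4%), 29 of 36 (80.6%), 26 of 43 (60.5%) and 42 of 74 cells (56.8%). The difference was 57.7 ± 7.84 percentage points (SD, n = 4 libraries; exact two-sided sign-flip permutation p = 0.125), and 31.2 ± 18 when each cell was thinned to 3000 expression UMIs.

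Before thinning, cells with a productive V 5′ and no nonproductive contig lay between, at 42.5% and 34.5% in WT DN3 and KI DN3 and 14.7% and 17.2% in WT DN4 and KI DN4. With the productive V 3′ the shares were high whether the nonproductive V was 5′ (68.7% over all libraries), absent (65.5%) or 3′ (74.4%). Median expression depth was 16550 UMIs with both V segments 5′, 16170 with the nonproductive V 3′ and 13758 without a nonproductive contig. A Trbv13-2 UMI was least frequent where neither listed V segment lay 3′ of the gene. This pattern was chosen after seeing the data too.

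**Figure D5:**
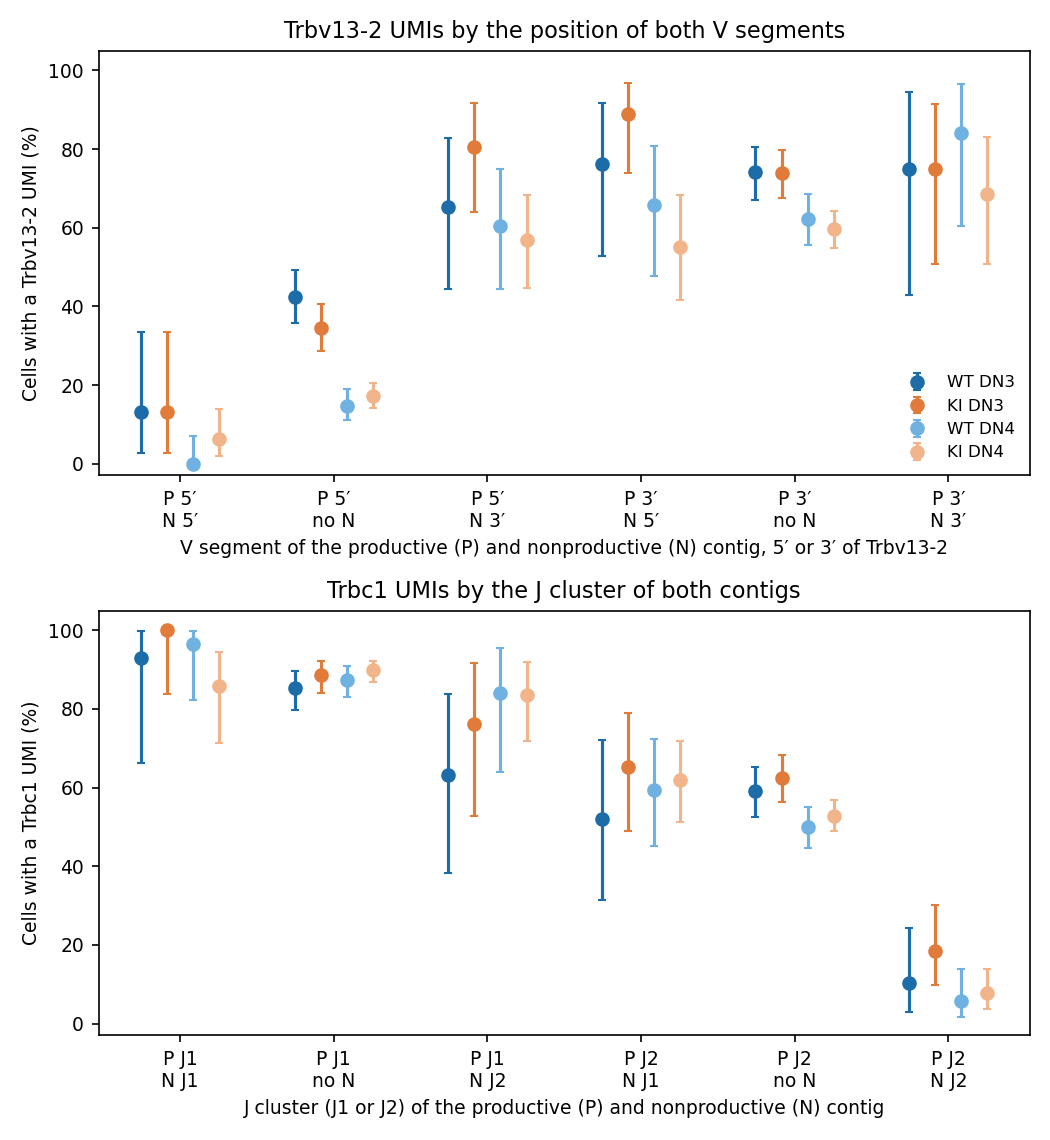
Upper panel: percentage of cells with a Trbv13-2 UMI (y axis) by whether the V segments of the productive (P) and nonproductive (N) contig lie 5′ or 3′ of Trbv13-2 (x axis). Lower panel: percentage of cells with a Trbc1 UMI by the J cluster of both contigs; points are libraries with 95% exact binomial intervals (at 0 of 42 cells the bar reaches 3 counts, 7.14%), and the lowest groups are both V segments 5′ (6.55% over all libraries) and both J segments in cluster 2 (9.87%).

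Among the other genes called, 5 V genes rose in cells with a nonproductive contig (Trbv24, Trbv12-2, Trbv2, Trbv19 and Trbv16) and Trbv26 fell. V genes are not independent here, since the cells were chosen by their contigs. Trbv16 was lower in KI DN4 (79.4 against 88.9 CPM) and lost its call without KI DN3 or WT DN4 (edgeR adjusted p = 0.15 and 0.54). Trbv19 lost its call without KI DN3 (edgeR adjusted p = 0.053). Trbv24, the pseudogene above, rose by 1.65 on the log2 scale. Another 16 called genes had names that do not start with Trb, 4 higher and 12 lower. Among the higher ones, 5830405F06Rik stands between Trbv2 and Trbv12-2 in the deposited gene order, so it is not read as a gene outside the β locus. Junb, an immediate early transcription factor, fell by 0.27 (adjusted p = 2.6e-09). The δ chain constant gene Trdc fell by 0.56 (1.8e-07), Nkg7 of cytotoxic granules by 0.61 (3.7e-07) and the quiescence factor Klf2 by 0.54 (0.0010), all by edgeR. Klf2 lost its call when WT DN4 was left out (edgeR adjusted p = 0.17). Cells of the cycling clusters 3 and 4 were 40 of 97 with against 200 of 459 without a nonproductive contig in WT DN3 and 86 of 150 against 289 of 530 in KI DN3. They were 101 of 179 against 329 of 661 for WT DN4 and 230 of 324 against 768 of 1153 for KI DN4. Within clusters 3 and 4, where 14 of the 16 were tested, 4 passed: Junb, Trdc, Tle3 and 5830405F06Rik. Nkg7 had a log2 change of -0.62 there, Ppt1 of -0.24 and Tcrg-V1 of 0.42, close to -0.61, -0.29 and 0.39 over all clusters, and did not pass, in a fit on fewer cells. Trbc1 and Trbc2 kept their log2 changes there, at -2.07 and -1.08.

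Of the gene lists, no gene of the nonsense-mediated decay machinery was called (0 of 14 tested, median log2 0.00, all genes tested 0.00), nor any of the 12 cycling genes (median 0.07), the 13 pre-selection DN3 genes (median -0.04) or the 9 genes of the step to the double-positive stage (median 0.02). Over all genes tested 0.27% were called, so nothing is read from these counts of 0. At an unadjusted p under 0.05 in edgeR's test 1 of the 14 decay genes, 4 of the 12 cycling genes, 4 of the 13 pre-selection genes and 2 of the 9 later genes passed, against 767 of the 9985 genes. DESeq2 called no gene of these lists, where a gene without an adjusted p counts as not called. Of 14 tested genes induced by pre-T cell receptor signals only Cd69, an activation marker, was called, and it fell by 0.37 (edgeR adjusted p = 0.025). Cd69 lost its call without KI DN3, WT DN4 or KI DN4 (edgeR adjusted p = 0.19, 0.18 and 0.090), within clusters 3 and 4 (0.90) and without the library block (0.9999), and lay between 0.0028 and 0.030 in the other edgeR alternatives. Of 9 γδ genes in the list Trdc and Tcrg-C1 fell and none was called higher, with a list median of -0.32. Tcrg-V1, a γ chain V gene outside the list, rose by 0.39 on the log2 scale (edgeR adjusted p = 0.012, higher in 4 of 4 libraries). Without KI DN3, Tcrg-C1 and Tcrg-V1 lost their calls (edgeR adjusted p = 0.19 and 0.66).

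The contigs of a cell seldom carried the same segment names. Of the 757 cells with 1 contig of each class, 9 shared the V name, 58 the J name and 4 both. No count for independent segments was computed, so nothing on how the contigs of a cell relate is read from these numbers. The 422 nonproductive contigs with a listed junction held 416 distinct ones, and none was found in more than 1 cell. The classes are not contrasted in this, because repeats were rare among productive rearrangements too. Of 4068 distinct productive rearrangements, counted per library, 33 were found in more than 1 cell of a library, in at most 3 cells each. In 5 of these clones 2 cells held a nonproductive contig, and in 3 of the 5 both cells had the same nonproductive V and J, namely TRBV29 with TRBJ2-5 and TRBV31 with TRBJ2-3 in KI DN4 and TRBV29 with TRBJ1-2 in WT DN4. The barcodes shared between libraries numbered 5 over all pairs of libraries.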

How the data were processed

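The authors deposited contig tables that give, per the file headers, a UMI count for each contig, and every contig in them was marked as a cell and as high confidence. They also deposited raw UMI counts per gene for 10237 cells, a table of clusters, and clonotype tables whose fraction of cells was not used. Cell Ranger 3.1.0 and 6.0.1 and the build mm10 are named in the submitters' processing notes, with no role given. Receptor libraries held 44935 to 148705 UMIs, in 608 to 1658 cells, and 3850 of 3947 receptor barcodes were in the table of cells. The clustering method is not given in the sources used here.

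Members were full-length TRB contigs. The members, lists and comparisons were chosen with earlier results of these data known. V names were reported by rule: the 6 highest and 6 lowest nonproductive shares among names with at least 20 contigs, pseudogenes and TRBV31; example junctions were those with the most UMIs, and 1 of them is not reported here. Genes outside this rule were named after their values were seen. Shares used SciPy 1.17.1; differences were taken within each library and tested by exact sign-flip permutation over 4 libraries. Germline V and J ends came from GENCODE vM21 transcripts on GRCm38, and junction starts were matched to them over at least 6 bases; the matching was tested on simulated data. Summed counts were tested with edgeR 4.0.16 (TMM, default filter on low counts, library as a block), also tested on simulated data. Cells were not replicates. Doublets were not called, and cells with over 2 full-length contigs were left out as an alternative.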

Additional observations from a re-analysis of the deposited data

Results flagged for a closer look

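Trbj2 use, nonproductive minus productive, was positive in both DN3 libraries (2.49 percentage points in WT and 3.39 in KI) and negative in both DN4 libraries (-4.81 in WT and -0.26 in KI), so the stages differed by 5.47 points on average. This difference was not tested, and every library's interval for 1 class overlaps that for the other class.

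Outside the β chain, full-length TRA contigs called nonproductive numbered 111 of 470 in WT DN4 (23.6%, 19.8 to 27.7%) and 148 of 543 in KI DN4 (27.3%, 23.6 to 31.2%), above the 3 counts that a count of 0 allows, against 1 in WT DN3 and 3 in KI DN3. Full-length contigs with segments of several chains, listed as Multi, were all nonproductive, with 16 in WT DN4 and 34 in KI DN4.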

How the results depend on the processing

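Of 205 alternative values for 36 results, 170 were counted as unchanged. For differences over libraries this means the same sign only, since their permutation p cannot fall below 0.125. For shares it means a value inside the counting interval of the main value, or within the SD over libraries for V names. Counts of called genes and of V names had to stay within a set fold. Only the log2 changes of Trbc1 and Trbc2 had to keep both sign and call. The nonproductive share fell with at least 3 UMIs per contig to 11.5%, 14.8%, 13% and 16.0% in WT and KI DN3 and in WT and KI DN4, in WT DN4 with at least 2 UMIs to 15.5%, and in KI DN4 without cells with over 2 contigs to 16.4%. Counting all TRB contigs, mostly J-only ones, raised it to 62.7%, 64.9%, 62.3% and 64.2%, and the share of KI DN4 cells also holding a productive contig to 99.6%. V UMIs in the expression library fell for nonproductive contigs to 57.9%, 54.5%, 60% and 52.6% when 2 UMIs were required and to 44.2%, 41.5%, 44.2% and 35.5% when each cell was thinned to 3000 UMIs; reading Trbv4 and Trbv24 raised them to 83.3%, 80%, 80.5% and 76.2%.

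The Trbj2 difference turned to -0.11 points among barcodes in the table of cells, and lay between -0.86 and 1.87 when each library was left out. The number of genes called went from 27 to 57 with no filter on low counts, 5 with DESeq2, 1 with no replicate block (Trbc1), and 16 (without WT DN4) to 51 (without WT DN3) when each library was left out. Of the 16 called genes whose names do not start with Trb, DESeq2 called 3 and the fit without the block none. DESeq2 gave no adjusted p for most of the 16, among them Trdc and Nkg7, whose log2 changes were -0.55 and -0.61 there. Trbc2 lost its call without the block (log2 -1.04, edgeR adjusted p = 0.9999). No paired analysis by replicate number was possible because the labels give none; the library served as the block.

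With the nonproductive V 3′ rather than 5′ the Trbv13-2 difference was 38.6 points when 2 UMIs were required and 31.2 when thinned. With Trbv12-2 in place of Trbv13-2 it was 13.6 points. The alternatives for gene expression of cells with only a nonproductive TRB were not run, because under 50 such cells were held. Depth limits all shares of cells with a UMI, and 4 libraries cannot give a permutation p below 0.125.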
